A study of Homo sapiens with 4 samples.

Results

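Genes of homologous recombination and of the Fanconi anaemia pathway were followed on 4 expression arrays of DU145 cells. The members were the probe sets whose gene symbol in the platform annotation stood on a list of 35 genes. Of these, 29 had a named probe set, with 1 probe set each, among 17687 genes measured, and the other 6 were not analysed here. DU145 is an established line of human prostate cancer cells that needs no androgen to grow, and it stands in this study for castration-resistant disease. All cells were grown with serum and treated for 48 h. The first group received vehicle, the second No.10-3 at 5 µM, the third C-30 at 0.5 µM and the fourth C-30 at 2 µM. Both compounds are described as inhibitors of PSF, the RNA-binding protein encoded by SFPQ. Each group had 1 array of total RNA from this 1 cell line, and the labels do not say whether the groups were separate cultures. No difference therefore has an error, a test or a p-value, and every statement describes these 4 arrays alone.

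Homologous recombination repairs a DNA double-strand break by copying an intact sister chromatid, and it works in S and G2 phase. The kinases ATM and ATR signal the break, the complex of MRE11, RAD50 and NBN begins to trim its ends, and EXO1 extends the trimming. BRCA1, BARD1 and PALB2 then help to load the recombinase onto the exposed strand, and BLM, GEN1 and SLX4 act on the joined molecules that strand exchange leaves. The Fanconi pathway unhooks crosslinks between DNA strands: its core complex attaches ubiquitin to FANCI and its partner, and the cut chromosome is passed on to recombination. Many of these genes are transcribed most strongly in proliferating cells, and defects in several of them make prostate tumours sensitive to PARP inhibitors.

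Values are log2 signals, and differences are log2 differences between 2 arrays, counted when they reached 1 in either direction (2-fold). A gene was counted only where the higher of its 2 signals reached 5.56, the median over named probe sets of all arrays, which is called the floor here. The 95th percentile of 612 negative control probe sets lay between 7.06 and 7.32 on the 4 arrays, and it is called the background level here. A gene under it on both arrays is within background, and a difference with 1 array under it is inexact. Between 30.5% and 33.9% of all genes lay above it. Pearson correlations between arrays over all genes lay between 0.979 and 0.987. Of the epithelial markers KRT7, KRT8, KRT18, KRT19, EPCAM and CDH1, the first 5 lay above the background level on every array and CDH1 on none. The leukocyte, fibroblast and endothelial markers lay under it on every array with the exceptions of CD68, above it on every array, and COL1A2, above it on 1. KLK3, KLK2 and TMPRSS2, genes of the androgen programme, were within background on every array. In bulk RNA, fewer cells of one kind and less RNA per cell cannot be told apart.

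Of the 29 repair genes, 13 lay above the background level on all 4 arrays, 5 on some of them and 11 on none. The 13 were ATM, CHEK1, PALB2, RAD51C, EXO1, MRE11, FANCC, FANCG, XRCC2, XRCC3, TOPBP1, TP53BP1 and SLX4. The 5 were BRCA1, GEN1, NBN, RAD50 and FANCI. ATR, RAD51AP1, FANCB, FANCE and FANCM stayed under the floor on every array and entered no count, which leaves 24 counted members. BLM and GEN1 were under the floor with vehicle and were counted because of their treated arrays.

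**Figure D1:**
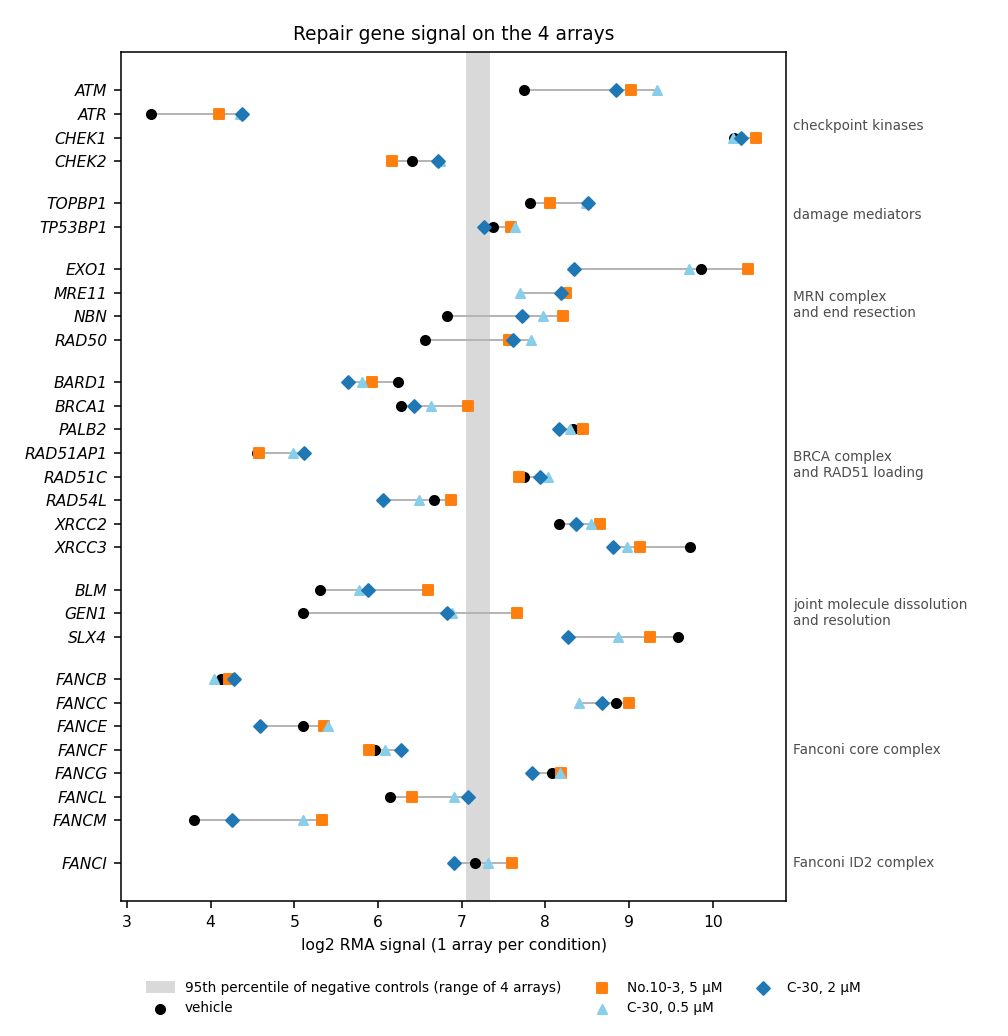
Signal of each of the 29 measured repair genes on the 4 arrays (x axis, log2 RMA signal; 1 point per array), grouped by role, with the range of the background level, 7.06 to 7.32, shaded. GEN1 spans the widest range, 2.57, with vehicle lowest, and EXO1 the next widest, 2.09, with C-30 at 2 µM lowest; signals of different genes are not comparable.

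With No.10-3 at 5 µM, 5 repair genes were at least 2-fold higher than with vehicle and none was 2-fold lower. They were the junction resolvase gene GEN1, the break sensors NBN and RAD50, the kinase gene ATM and the helicase gene BLM. That is 20.8% of the 24 counted members, where 5.68% of 9219 genes passed 2-fold in either direction, 4.36% upwards and 1.32% downwards. With C-30 at 0.5 µM, 4 were at least 2-fold higher, namely ATM, GEN1, RAD50 and NBN, and again none was lower. That is 16.7%, beside 6.17% of 9267 genes, 3.40% upwards and 2.77% downwards. With C-30 at 2 µM, ATM, GEN1 and RAD50 were at least 2-fold higher, and the exonuclease gene EXO1 and the nuclease scaffold gene SLX4 at least 2-fold lower. That is 20.8%, beside 10.8% of 9319 genes, 4.67% upwards and 6.15% downwards. GEN1 and BLM were counted only because of treated arrays where they were high. BLM was within background in each of these comparisons, and GEN1 in those with C-30. With the floor required on both arrays, 3 of 22 members passed 2-fold with No.10-3 (beside 4.47% of 8438 genes), 3 with C-30 at 0.5 µM (5.24% of 8411) and 4 with C-30 at 2 µM (9.53% of 8366). The 3 comparisons share the vehicle array, so a low vehicle signal raises all of them at once. The members were chosen with earlier results of these data known, so their shares are not independent of these arrays. ATM, GEN1 and RAD50 were the members past 2-fold upwards on every treated array, 3 of the 24 counted members. Of all genes, 84 of the 8983 counted in all 3 comparisons were so. RAD50 passed only just with No.10-3 and fell short of 2-fold there under each of 3 other scalings.

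Most members differed less. The median difference of the 24 counted members was 0.23 after No.10-3 and 0.21 and 0.12 after the lower and the higher dose of C-30, beside 0.05, -0.04 and -0.06 over all counted genes. Higher than vehicle by any amount were 18, 15 and 13 of the 24. Of all counted genes, 54.0%, 46.9% and 46.4% were higher in the same comparisons. Over the 13 members above the background level on all arrays the medians were 0.15, -0.01 and -0.10, beside 0.04, -0.08 and -0.11 over the 4982 genes that met the same condition. In that set ATM alone passed 2-fold in the first and the second comparison, and ATM, EXO1 and SLX4 with C-30 at 2 µM. The share of the 4982 genes past 2-fold was 3.87%, 4.92% and 9.45%.

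**Figure D2:**
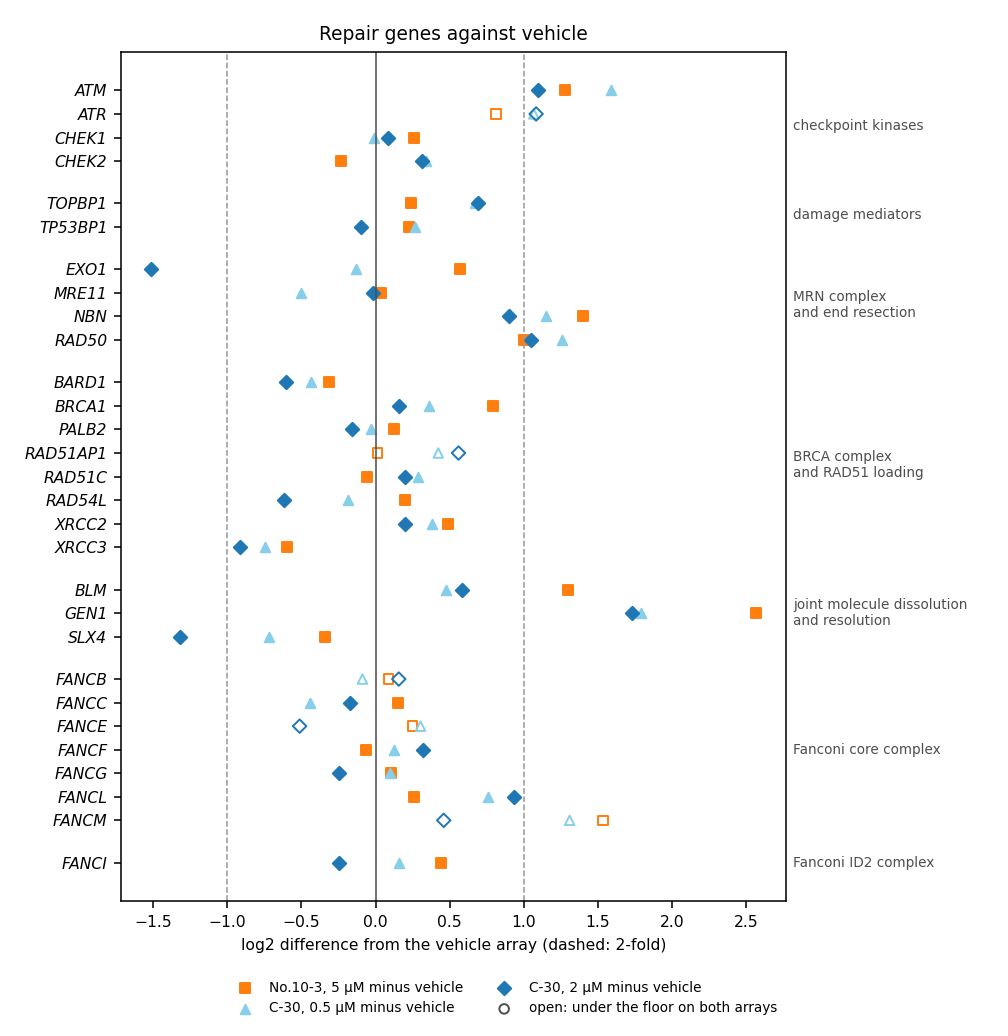
Difference of each repair gene from the vehicle array (x axis, log2 units; dashed lines at 2-fold; open symbols for genes under the floor on both arrays). ATM, GEN1, NBN and RAD50 stand to the right for each treatment, EXO1 and SLX4 lie furthest left with C-30 at 2 µM, and most Fanconi genes lie between the dashed lines.

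The checkpoint kinases differed among themselves. ATM (chromosome 11, 108223067 to 108369102 in GRCh38.p14), the kinase that responds to double-strand breaks, read 7.75 on the vehicle array, 9.03 after No.10-3, and 9.33 and 8.84 after C-30 at 0.5 and 2 µM. Vehicle was the lowest array and every signal lay above the background level. The differences from vehicle were 1.28, 1.59 and 1.10, or 2.43-fold, 3.00-fold and 2.14-fold. A larger difference than that of ATM was seen for 157 of 9219 genes with No.10-3, 43 of 9267 with C-30 at 0.5 µM and 297 of 9319 with C-30 at 2 µM. ATR, the kinase that answers to stalled forks, read 3.29, 4.10, 4.36 and 4.37 in the same order, far under the background level throughout, so that its differences of 0.81, 1.07 and 1.08 were not counted. CHEK1, which encodes the effector kinase downstream of ATR, kept nearly the same signal on the 4 arrays, 10.26, 10.52, 10.25 and 10.34. Its largest difference from vehicle was 0.26. CHEK2, the effector downstream of ATM, was within background on every array and differed by -0.23, 0.34 and 0.31.

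Of the mediators, TOPBP1, which activates ATR, read 7.82 with vehicle, 8.05 with No.10-3 and 8.49 and 8.51 with the lower and the higher dose of C-30. Its differences were 0.24, 0.67 and 0.69, so both C-30 arrays stood above the other 2. TP53BP1, which shields broken ends from trimming, stayed between 7.27 and 7.63.

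The subunits of the MRE11, RAD50 and NBN complex differed from one another. NBN, the subunit that recruits ATM, read 6.82 under vehicle, 8.21 after No.10-3, and 7.97 and 7.72 after the 2 doses of C-30. RAD50 (chromosome 5, 132556977 to 132646349), the ATPase that tethers the ends, read 6.57, 7.57, 7.82 and 7.61. For both genes vehicle was the only array under the background level, which makes the size of the differences inexact. NBN was higher by 1.40, 1.15 and 0.90 and RAD50 by 1.00, 1.26 and 1.05. The first of the RAD50 values lay between 0.88 and 0.92 under 3 other scalings and then short of 2-fold. MRE11, the nuclease subunit, read 8.21, 8.24, 7.70 and 8.19, all above background. It differed by 0.04, -0.50 and -0.02, so that on no treated array was it 2-fold higher as RAD50 was.

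EXO1 (chromosome 1, 241847986 to 241889939), the exonuclease of long-range end trimming, read 9.86 under vehicle, 10.43 after No.10-3, and 9.72 and 8.34 after C-30 at 0.5 and 2 µM. The array of C-30 at 2 µM stood apart below the others, and no signal was near background. The differences from vehicle were 0.57, -0.13 and -1.51, the last a 2.85-fold lower signal. With C-30 at 2 µM, 118 of 9319 genes had a lower difference.

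No gene of the BRCA complex or of recombinase loading passed 2-fold in any comparison. BRCA1 (chromosome 17, 43044295 to 43170327), the ubiquitin ligase subunit that promotes trimming, read 6.28 under vehicle, 7.07 after No.10-3, and 6.64 and 6.44 after the 2 doses of C-30. Its signal with No.10-3 was the only one above the background level of its array, and the differences were 0.79, 0.36 and 0.16. BARD1, the obligate partner of BRCA1, went the other way within background, from 6.25 with vehicle to 5.93, 5.81 and 5.64, at differences of -0.31, -0.43 and -0.60. PALB2, which bridges BRCA1 to its partners, differed by at most 0.16 in size.

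Among the paralogs of the recombinase, XRCC3 (chromosome 14, 103697617 to 103715451) was lower on every treated array. It read 9.73 under vehicle, 9.13 after No.10-3, and 8.98 and 8.81 after C-30 at 0.5 and 2 µM, all above background. The differences of -0.60, -0.75 and -0.91 stayed short of 2-fold. XRCC2 was higher by 0.49, 0.38 and 0.20, and RAD51C, which pairs with XRCC3, differed by -0.06, 0.29 and 0.20. RAD54L, a motor protein that helps strand exchange, was within background at 6.67, 6.87, 6.49 and 6.06. RAD51AP1, a partner of the recombinase, stayed under the floor.

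The 3 genes that act on joined DNA molecules differed in opposite directions. GEN1 (chromosome 2, 17753278 to 17788946), a resolvase that cuts Holliday junctions, read 5.10 under vehicle, 7.67 after No.10-3, and 6.89 and 6.83 after the 2 doses of C-30. Vehicle lay under the floor and the signal with No.10-3 was the only one above the background level. The difference of 2.57 is therefore inexact, and those of 1.79 and 1.73 with C-30 were within background. BLM (chromosome 15, 90717346 to 90816166), a helicase that dissolves double junctions without a crossover, read 5.31, 6.60, 5.78 and 5.89, within background on every array, with differences of 1.30, 0.47 and 0.58. SLX4 (chromosome 16, 3581181 to 3611606), the scaffold that holds structure-specific nucleases, read 9.59, 9.25, 8.87 and 8.27. All 4 signals of SLX4 were above background, with vehicle highest and C-30 at 2 µM lowest. It differed by -0.34, -0.72 and -1.32, the last 2.50-fold lower.

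FANCI and the counted genes of the Fanconi core complex showed no difference past 2-fold. FANCC and FANCG, core subunits, lay above background on every array and differed by 0.15, -0.44 and -0.17 and by 0.10, 0.10 and -0.25. FANCL, the ubiquitin ligase of the core complex, read 6.15 under vehicle, 6.41 after No.10-3, and 6.91 and 7.08 after the 2 doses of C-30, all within background. Its difference with C-30 at 2 µM, 0.93, lay just under the threshold. FANCF differed by -0.07, 0.13 and 0.32. FANCM, the helicase that brings the core complex to DNA, was under the floor throughout, at 3.80, 5.33, 5.10 and 4.26, although its differences with No.10-3 and the lower dose of C-30 were 1.53 and 1.31. FANCI, a protein that the core complex marks, read 7.16, 7.60, 7.32 and 6.91, close to the background level, and differed by 0.44, 0.16 and -0.25. FANCB and FANCE stayed under the floor.

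The 2 doses of C-30 were compared directly, without the vehicle array. EXO1 was the one member past 2-fold, at -1.38 (2.60-fold lower at 2 µM), beside 3.57% of 9282 genes past 2-fold, 1.39% upwards and 2.18% downwards. It was also the one such member above background on all arrays, beside 1.93% of the 4982 genes that met that condition. SLX4 was next at -0.60 and ATM at -0.49, and MRE11 was the highest counted member at 0.48. Of the 24 counted members 17 were lower and 7 higher at 2 µM, with a median of -0.17 beside -0.03 over all counted genes, of which 46.6% were higher. PALB2, BARD1, RAD54L, EXO1, XRCC3 and SLX4 were lower at 0.5 µM than under vehicle and lower again at 2 µM. These 6 are 25.0% of the counted members, and 26.2% of 8856 genes had that order. BLM, FANCF, FANCL and TOPBP1 had the opposite order, 16.7% of members beside 19.3% of genes. Neither share stood far from that of all genes.

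**Figure D3:**
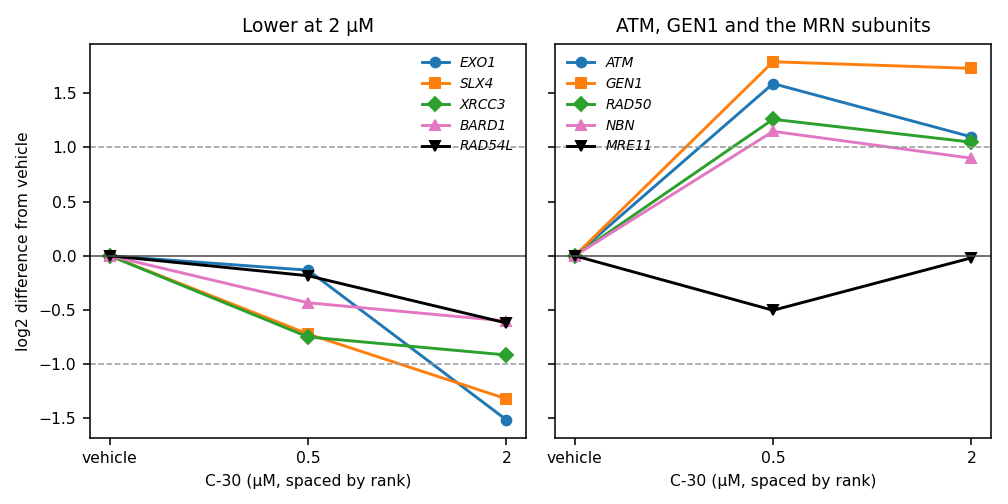
Difference from vehicle (y axis, log2 units; dashed lines at 2-fold) against C-30 dose for 5 members that were lower at 2 µM (left) and for ATM, GEN1, RAD50, NBN and MRE11 (right), 1 array per point. EXO1 lies at -0.13 at 0.5 µM and at -1.51 at 2 µM, whereas ATM, GEN1, RAD50 and NBN are already at 1.15 to 1.79 at 0.5 µM and no higher at 2 µM.

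The compounds were used at different doses, so their values are only set side by side. EXO1 stood at 0.57 with No.10-3 and at -0.13 and -1.51 with C-30. BLM and BRCA1 stood at 1.30 and 0.79 with No.10-3, and at 0.47 and 0.36 with the lower and 0.58 and 0.16 with the higher dose of C-30. TOPBP1 and FANCL stood at 0.24 and 0.26 with No.10-3, and at 0.67 and 0.76, then 0.69 and 0.93, with C-30. No member was 2-fold higher with 1 treatment and 2-fold lower with another.

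Other genes of the same pathway were taken from a list of 48, of which 43 were measured. This list and those below were also chosen with earlier results of these data known. Counted genes past 2-fold upwards were 2 of 36 with No.10-3, 1 of 37 with C-30 at 0.5 µM and 3 of 38 with C-30 at 2 µM, and downwards 0, 0 and 1. In either direction that is 5.56%, 2.70% and 10.5%, beside 5.68%, 6.17% and 10.8% of all counted genes. No share of this list was above that of all genes. Its medians were 0.34, 0.17 and 0.09. RAD51D, another paralog of the recombinase, was higher by 1.18 with No.10-3. DCLRE1A, a crosslink nuclease gene, was higher by 1.18 with No.10-3 and by 1.66 with C-30 at 2 µM. SFR1, which assists the recombinase together with SWI5, was higher by 1.12 and 1.41 at the 2 doses of C-30, and SWI5 by 1.02 at the higher dose. SPIDR, a scaffold of recombination, stood at -1.03 with C-30 at 2 µM. DCLRE1A with C-30 at 2 µM had 1 array above the background level, and the other differences named here were within background.

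A second list held 25 other genes of checkpoint and break signalling, 23 of them measured. With No.10-3, 3 of 21 counted genes passed 2-fold upwards and none downwards. With C-30 at 0.5 µM 1 of 20 passed each way, and so it was at 2 µM. In either direction that is 14.3%, 10% and 10%, beside 5.68%, 6.17% and 10.8% of all counted genes. RIF1, which acts with TP53BP1 against end trimming, read 7.10 under vehicle, 8.68 after No.10-3, and 8.74 and 7.61 after the 2 doses of C-30. Vehicle lay under the background level and the signal was highest with No.10-3 and the lower dose of C-30, at differences of 1.58, 1.64 and 0.51. ABRAXAS1, a subunit of the BRCA1-A complex, was higher by 1.55, 0.84 and 1.12, within background. PAXIP1, a mediator of ATM signalling, differed by -0.01, -0.19 and -1.12, with every signal above background. SHLD1, a shieldin subunit, stood at -1.32 with C-30 at 0.5 µM, within background.

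Genes of other repair routes were counted in the same way, beside 5.68%, 6.17% and 10.8% of all counted genes past 2-fold. Of the counted genes of end joining, 1 of 9, 0 of 8 and 1 of 10 passed 2-fold (11.1%, 0% and 10%). Their medians were -0.12, -0.19 and 0.09. Of those of mismatch and excision repair, 1 of 22, 0 of 25 and 4 of 25 did so (4.55%, 0% and 16%), with medians of 0.07, -0.31 and -0.21. In the last group ERCC2, a helicase of nucleotide excision repair, read 10.62, 9.92, 9.88 and 8.77, with a difference of -1.85 at the higher dose of C-30. OGG1, the oxoguanine glycosylase gene, stood at -1.22 and DDB2, a damage sensor, at 1.04 on the same array, both with 1 of the 2 arrays under the background level. The fourth was PMS2, which has near-identical copies whose transcripts its probes may read.

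Cell cycle genes differed from vehicle on the same arrays. Over 26 mitosis genes the median differences were 0.67 after No.10-3 and 0.06 and 0.28 after C-30 at 0.5 and 2 µM, with 24, 15 and 19 of 26 higher. Past 2-fold were 6, 4 and 6 of the 26 (23.1%, 15.4% and 23.1%), beside 5, 4 and 5 of the 24 repair genes. With C-30 at 2 µM 1 of the 6 was lower, and all others past 2-fold were higher, among them CENPF, CCNB2 and CDK1 on every treated array. Over the 28, 29 and 28 counted genes of G1/S and replication they were -0.09, -0.25 and -0.41, with 17, 20 and 20 lower. With C-30 at 2 µM 6 of these 28 passed 2-fold downwards, beside 6.15% of all counted genes. Among them were MCM5 at -1.54 and MCM4 at -1.17, on the array where EXO1 and SLX4 were lowest. The part of the cell cycle in the repair gene differences was not tested.

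The differences were set against signal level and gene size. Over the 24 counted members the Spearman correlation of the difference with the mean signal was -0.13, -0.43 and -0.37 for the 3 comparisons with vehicle, beside 0.01, -0.08 and -0.10 over all counted genes. With the genomic span it was 0.37, 0.26 and 0.29, beside 0.18, 0.10 and 0.07. The members' median span was 55.0 kb, and that of all counted genes between 30.5 and 30.7 kb. ATM spans 146 kb, RAD50 89.4 kb, NBN 51.3 kb, GEN1 35.7 kb, EXO1 42.0 kb, SLX4 30.4 kb and XRCC3 17.8 kb. All points share the vehicle array, genes are not independent replicates, and the part of span in the differences was not tested. Of 2197 positive control probe sets, 6.55%, 8.06% and 11.3% differed from vehicle by 2-fold or more, counted without the floor. Of all genes, also without the floor, 3.63%, 3.95% and 6.85% did so. The probe sets for ERCC controls had median differences of -0.16, -0.04 and -0.06. Those of 8 hybridisation controls had medians of -0.34, -0.01 and -0.14. They ranged from -0.54 to -0.28, from -0.80 to 0.11 and from -0.89 to 0.15.

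Promoter windows from RefSeq, 250 bases before to 50 after a start, were found for 27 of the 29 members, 36 windows in all. TTCCCGC or TTGGCGC, core letters of sites for E2F factors, stood on either strand in windows of 12 of the 27 members (44.4%), beside 11.0% of all genes in the table. The 12 were BARD1, BLM, BRCA1, FANCC, FANCE, FANCG, FANCL, RAD51AP1, RAD54L, TOPBP1, XRCC2 and XRCC3. CCAAT, the core of sites for NF-Y, stood in those of 14 members (51.9%), beside 39.7%. TTTGAA, the cell cycle homology region, stood in those of ATM and FANCC (7.41%), beside 18.2%. TTGGCGC and CCAAT read on the other strand can share letters, and a match is a description and no site. With C-30 at 2 µM the 10 counted members with E2F letters had a median difference of -0.01 and the 12 without one of 0.14, beside -0.11 and -0.05 over 1441 and 6323 genes. With No.10-3 the members' medians were 0.22 and 0.17.

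The 150 bases before the first start are shown for some members. They were higher on every treated array (ATM, RAD50), lower with dose (SLX4, XRCC3) or hold both E2F and CCAAT letters there (RAD54L, BLM). The sequences are from RefSeq in GRCh38.p14, written 5′ to 3′ on the gene's strand. The motif letters above are in capitals on either strand (ATTGG is CCAAT and GCGGGAA is TTCCCGC on the other strand).
ATM (chr11:108222917-108223066, plus strand): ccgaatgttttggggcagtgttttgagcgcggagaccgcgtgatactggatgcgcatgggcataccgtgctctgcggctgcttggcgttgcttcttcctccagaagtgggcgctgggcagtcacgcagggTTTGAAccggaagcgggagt
RAD50 (chr5:132556827-132556976, plus strand): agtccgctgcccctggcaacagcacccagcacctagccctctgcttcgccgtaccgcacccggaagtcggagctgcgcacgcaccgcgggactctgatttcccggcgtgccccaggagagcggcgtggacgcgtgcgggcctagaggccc
SLX4 (chr16:3611607-3611756, minus strand): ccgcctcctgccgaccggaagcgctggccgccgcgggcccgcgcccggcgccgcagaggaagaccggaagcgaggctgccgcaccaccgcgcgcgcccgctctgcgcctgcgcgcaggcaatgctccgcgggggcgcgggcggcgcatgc
XRCC3 (chr14:103715452-103715601, minus strand): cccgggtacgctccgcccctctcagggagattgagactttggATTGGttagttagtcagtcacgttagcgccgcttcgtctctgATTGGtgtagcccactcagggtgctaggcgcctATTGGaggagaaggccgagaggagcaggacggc
RAD54L (chr1:46247538-46247687, plus strand): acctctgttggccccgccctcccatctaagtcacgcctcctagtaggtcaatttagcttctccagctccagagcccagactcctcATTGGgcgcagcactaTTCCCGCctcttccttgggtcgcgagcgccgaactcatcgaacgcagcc
BLM (chr15:90717196-90717345, plus strand): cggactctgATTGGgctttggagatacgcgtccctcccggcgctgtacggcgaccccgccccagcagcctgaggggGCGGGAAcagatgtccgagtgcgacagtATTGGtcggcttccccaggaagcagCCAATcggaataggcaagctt

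RAD50 and SLX4 hold none of the searched letters in these bases. XRCC3 holds CCAAT on the other strand 3 times, and its E2F letters lie elsewhere in its windows. BLM and RAD54L carry the same 2 kinds of letters, as does RAD51AP1, whose bases are not shown.

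Several members start beside another gene on the opposite strand. Within 1000 bases of a member's start, such a neighbour was found for 16 members and measured for 12. SMC6, a subunit of a repair complex, starts 59 bases from GEN1. It read 8.32 under vehicle, 9.40 after No.10-3, and 9.24 and 8.64 after the 2 doses of C-30. All 4 signals were above background, with vehicle lowest, and the differences were 1.08, 0.92 and 0.32, smaller than those of GEN1. NPAT, which drives transcription of histone genes, starts 429 bases from ATM and differed by 0.86, 0.27 and 0.38, within background, where ATM differed by 1.28, 1.59 and 1.10. ZFYVE21, beside XRCC3, differed by 0.21, -0.30 and -0.15. NBR1, beside BRCA1, differed by 0.13, 0.12 and -0.30. FERRY3, beside RAD51AP1, was higher by 1.16, 1.03 and 0.97, within background, while RAD51AP1 was under the floor. HSCB, beside CHEK2, differed by -0.82, -0.76 and -0.28, where CHEK2 differed by -0.23, 0.34 and 0.31, all within background. DCTN5, beside PALB2, differed by 0.28, -0.20 and -0.12. Member and neighbour had the same sign in 9, 10 and 8 of the 12 pairs, those under the floor included. Both genes of a pair were set against the same vehicle array there. Between the C-30 doses, without that array, the sign was the same in 4 of 12 pairs. No share for other gene pairs was computed, so whether neighbours differ together was not tested. MOSPD2, ANKRD49, DNASE1, TF and MAP1A, beside FANCB, MRE11, SLX4, TOPBP1 and TP53BP1, were under the floor on every array, so their differences say nothing of a change.

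**Figure D4:**
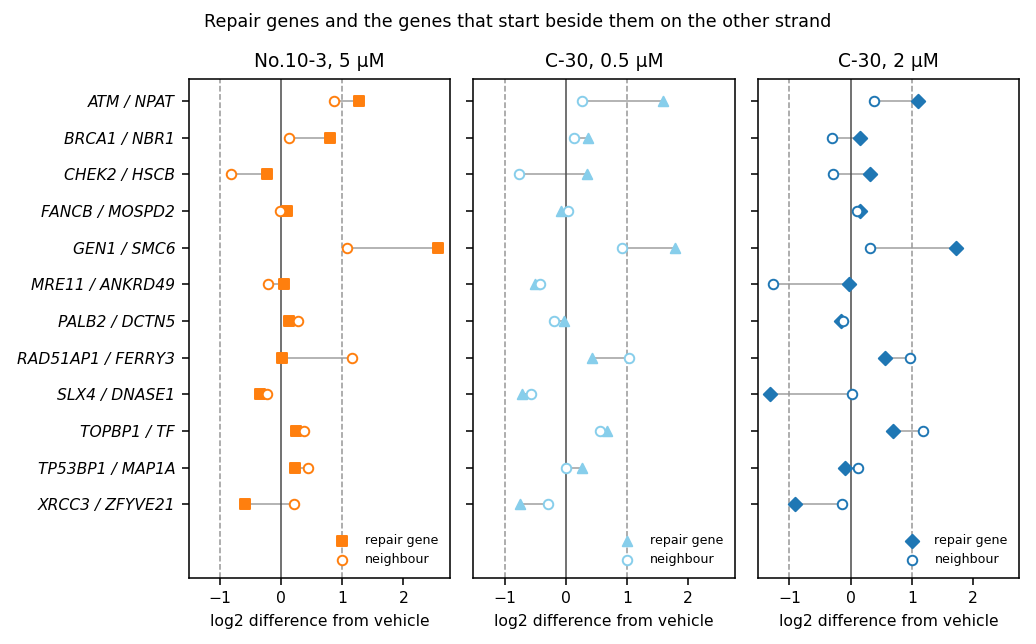
Difference from vehicle (x axis, log2 units; dashed lines at 2-fold) of 12 repair genes (filled) and of the gene that starts within 1000 bases on the other strand (open), 1 panel per treated array. SMC6 lies on the same side as GEN1 in each panel at 1.08, 0.92 and 0.32; FANCB, RAD51AP1 and the neighbours MOSPD2, ANKRD49, DNASE1, TF and MAP1A were under the floor on every array.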

How the data were processed

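Total RNA of DU145 cells was given a biotin label with a whole-transcript kit and hybridised, 1 array per group, per the labels' protocols. The deposited values are log2 signals made by the authors with RMA in Affymetrix Expression Console, version 1.3.0, per the submitters' processing notes. The log base was inferred from the range of the values and the usual output of RMA, which corrects background and quantile-normalizes arrays, so a change shared by most genes would be removed. Signals reached 19.9, more than log2 of raw scanner intensities usually gives, so a rescaling before summary is possible and every difference and fold holds on the deposited scale only. For that step, build and probe annotation were not given in the sources used here. The values per sample differed from the series table by at most 5e-05.

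Of 24351 probe sets, 17709 had 1 symbol in the platform annotation, 0 had several and 6642 none; all were updated by Entrez identifier against RefSeq GRCh38.p14. For 20 genes with several probe sets the mean was taken. The floor, the threshold and the background level are given with the results. No test could be made with 1 array per group, and precision is limited by the number of arrays. All 35 members could be named; of the other lists, genes past 2-fold against vehicle, at most 4 each way. The members and lists were chosen with earlier results of these data known. The procedure was tested on simulated data with differences of 2 log2 units in genes at least 1 unit above the floor. Its recovery of smaller differences, or of genes nearer the floor, was not tested. Alternatives were another threshold, 2 other floors and a floor on both arrays (added after seeing the data), 2 rules on background, 3 scalings, the brightest probe set and the series table. The tools were matplotlib 3.10.9, statsmodels 0.14.6, scipy 1.17.1, pandas 2.3.3 and numpy 2.4.6 under Python 3.11.15.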

Additional observations from a re-analysis of the deposited data

How the results depend on the processing

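Each of the 4 counts of members past 2-fold changed by over 1.5 times under some alternative. With No.10-3 the count of 5 became 2 of 12 with a floor at the 75th percentile (7.90), beside 5.23% of all genes. It became 1 among genes above background on both arrays (beside 3.69%). With the floor on both arrays, chosen after seeing the data, it became 3 (beside 4.47%). At 1.5-fold it was 7 of 24, beside 23.1% of all genes. With C-30 at 0.5 µM the count of 4 became 2 and 1 under the first and the second of these settings, beside 6.48% and 4.89% of all genes. The median turned from 0.21 to -0.012 in both. At 1.5-fold the count was 8, beside 25.6% of all genes. With C-30 at 2 µM the count of 5 became 3 under the first and the second setting alike, beside 12.3% and 9.25% of all genes. It was 11 at 1.5-fold, beside 33.5% of all genes. The median with C-30 at 2 µM, 0.12, turned to -0.09 and -0.10 under the first and the second setting and to -0.02 among genes above background on at least 1 array. Between the C-30 doses the count of 1 became 2 at 1.5-fold, beside 17.8% of all genes. Fewer genes enter under those floors. The median with No.10-3, 0.23, lay between 0.12 and 0.15 under the 3 scalings. RAD50 with No.10-3 fell short of 2-fold under all 3 scalings, at 0.88 after quantile normalization, which leaves 4 members. FANCL with C-30 at 2 µM reached 1.00 with arrays centred on counted genes. No single member changed sign where it had passed 2-fold. Of all genes past 2-fold with No.10-3, 76.7% were higher, or 61.4% after centring, and with C-30 at 2 µM 43.2%, or 55.4%.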
